A study of Mus musculus with 3 samples.

Results

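The transcripts described here are the Ensembl transcripts of the mRNA table that GENCODE M21 types as nonsense_mediated_decay (NMD), in genes for which the table also lists a protein_coding transcript. GENCODE M21 holds 56422 of the 56651 transcripts listed, and 3581 of them have the NMD type. A protein_coding transcript of the same gene was listed for 3478 of the 3581, in 2410 genes. A gene was kept when all its listed transcripts together held 50 or more reads in each library, which left 3258 NMD transcripts in 2221 genes. The other 220 NMD transcripts, in 189 genes, lay under this minimum. The NMD share of a gene is the percentage of its reads that the authors' transcript counts place on its NMD transcripts. Of the 2221 genes, 1604 had 20 or more NMD reads over the 3 libraries, and only these were compared for a change. The other 617 genes had fewer.

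The study sequenced RNA of apoptotic bodies (ABs), membrane-bound fragments shed by dying cells, from cultures at 3 stages of osteoclast formation. The first stage was bone marrow macrophages (BMM-ABs), the next preosteoclasts (pOC-ABs) and the last mature osteoclasts (mOC-ABs), all from 11-week-old C57BL/6 mice and each with 1 library. Macrophages had grown in M-CSF at 50 ng/mL for 72 h and received no RANKL, the cytokine that drives osteoclast formation. Preosteoclasts then received RANKL at 100 ng/mL beside M-CSF at 30 ng/mL for 24 h, and mature osteoclasts the same for 72 h or more. The sample labels give alendronate (500 μM, 12 h) as the agent that brought all cultures to apoptosis. The study's methods name staurosporine instead. The sample titles name the cells and the description of the series names ABs, so the libraries were taken as ABs. The comparisons are pOC-ABs against BMM-ABs (G1), mOC-ABs against BMM-ABs (G2) and mOC-ABs against pOC-ABs (G3), and they share libraries. With 1 library per stage there was no replicate error, no test was made, and intervals cover counting error only. Where 3 values, 1 per library, follow each other, they stand in the order BMM-ABs, then pOC-ABs, then mOC-ABs.

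Nonsense-mediated decay is the surveillance pathway that destroys mRNAs whose reading frame ends too early. A stop codon is read as premature when an exon junction complex, left behind by splicing, still sits downstream of the terminating ribosome. The helicase UPF1 is then phosphorylated by SMG1, and factors such as SMG5 and SMG6 bring in cleavage and decay. Splicing factors of the SR and hnRNP families, and several ribosomal proteins, use the pathway to limit their own level by splicing their pre-mRNA into a form with an early stop. The GENCODE type is given from transcript structure, and it does not say that a transcript was degraded in these cells.

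The sequences below are 30-base windows of GENCODE M21 transcripts (GRCm38) around the stop codon, which is in capitals, written 5′ to 3′. The first set is shown because these ribosomal protein transcripts held a steady, large part of their gene's reads in all 3 libraries.
Rpl13a-205: tgggatccctccaccctaTGAcaagaaaaa
Rps19-205: atgactcaacacagcctcTGAaaaccaaaa
Rpl12-201: tccgaagaaagttggcgaTGAcattgccaa
Rpl3-205: ccaactgtgctctgctccTGAaggcacaag
These stops lie on the reverse strand at chr7:45126713-45126715, on the forward strand at chr7:24886151-24886153, on the forward strand at chr2:32962594-32962596 and on the reverse strand at chr15:80081034-80081036. The stops of Rps19-205 and Rpl3-205 fall in bases that no protein-coding transcript of the gene contains. Those of Rpl13a-205 and Rpl12-201 fall inside the normal coding sequence and are reached in another reading frame.

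The second set is shown because the shares of these transcripts, to which many reads were assigned, differed widely between the libraries.
Ctnnb1-208: gttgctttattctcccatTGAaaatatcca
Dgkz-212: tccgtgagccaaccttcgTAAgacaccact
Adam17-203: tcgagtgaagagacgagcTGAacctaaccc
Pip5k1c-208: ggtgggcaacctgagctcTAAgccggagcg
Ndufa10-207: gcccctcgacatagagttTAGtggcagctg
Kbtbd11-202: ggggagcagggtgcagtcTAGgacaggatc
Their stops are at chr9:120957534-120957536 (forward), chr2:91942346-91942348 (reverse), chr12:21347400-21347402 (reverse), chr10:81305767-81305769 (forward), chr1:92469997-92469999 (reverse) and chr8:15029302-15029304 (forward). Kbtbd11-202 differs from the other 5 in that its stop is also the stop of a protein-coding transcript, and its reading frame has 100% of the length of the longest annotated one. A single junction in the untranslated part after the stop gives it the NMD type.

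The third set comes from splicing factors, whose early stops are the best known case of this kind of control.
Ptbp1-201: acggtgatgtgcagcgggTGAagatcctgt
Hnrnpdl-205: gtgcccgctggaccccagTAGccttcccca
Ddx5-208: gcctccagagggctaggtTAGtacaaactc
Rbm39-225: agtgtgaactgtcaatcaTAAggatgagaa
These stops are at chr10:79862473-79862475 (forward), chr5:100038593-100038595 (reverse), chr11:106783954-106783956 (reverse) and chr2:156178881-156178883 (reverse). The stop of Ptbp1-201 lies in normal coding bases, and the other 3 lie in bases that no protein-coding transcript of the gene contains.

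The 3258 transcripts shared the structure that defines the type. The median distance from the stop codon to the last exon junction was 350.5 bases (quartiles 168 and 762.25), and the median number of junctions after the stop was 3. In 3240 transcripts (99.4%) the distance was 50 bases or more, and 18 had less. The stop fell inside coding bases of an annotated protein-coding transcript in 1861 (57.1%), in bases absent from all of them in 1162 (35.7%), at a stop shared with one of them in 184 (5.65%) and in untranslated bases in 51 (1.57%). Median reading frames were 300 bases long, 22.5% of the longest protein-coding frame of the gene. Transcripts with a shared stop had a median of 78.7% and a single junction after it. The stop codon was TGA in 1868 transcripts (57.3%), TAA in 744 (22.8%) and TAG in 646 (19.8%).

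**Figure D1:**
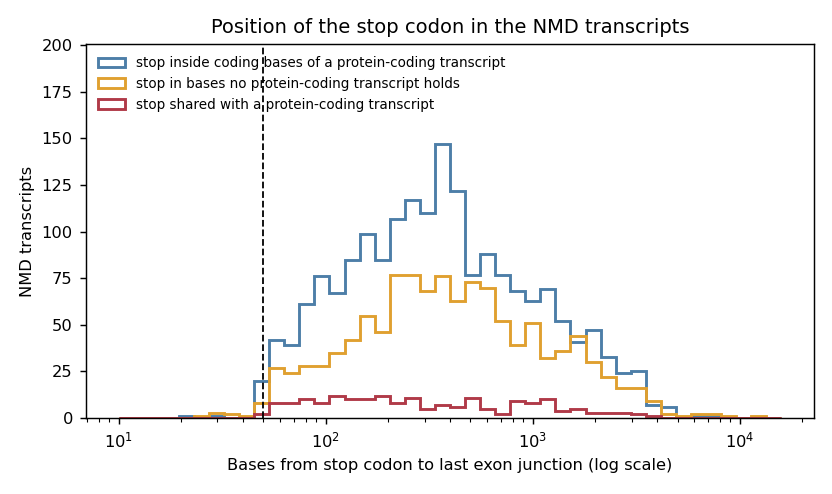
Number of NMD transcripts (vertical axis) by the bases from the stop codon to the last exon junction (horizontal axis, log scale), for stops in coding bases (1861 transcripts in all), in bases no protein-coding transcript holds (1162) and shared with a protein-coding transcript (184); distances under 10 bases are not drawn. The dashed line is at 50 bases, and 3240 of the 3258 transcripts lie at or beyond it.

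Compared between start and stop with the most-read protein-coding transcript of the same gene, 1464 NMD transcripts only added bases and 1442 only skipped bases. Another 195 did both and 157 did neither. Of those that only skipped bases, 1389 (96.3%) skipped a number that is not a multiple of 3, with a median of 102 bases. Of those that only added bases, 985 (67.3%) added such a number, with a median of 35 bases. Rpl13a-205, from the gene of a protein of the large ribosomal subunit, lacked 5 bases of Rpl13a-201. Rps19-205 added 47 bases to the path of Rps19-202, and Rpl3-205 added 178 to Rpl3-201.

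How far a read can tell an NMD transcript from its neighbours follows from the same structure. No base of 1721 of the 3258 transcripts (52.8%) was outside the exons of the other listed transcripts of the gene, and for 398 (12.2%) no splice junction was either. The 1721 transcripts held 52.1%, 54.6% and 56.6% of the NMD reads of the libraries. In 874 transcripts (26.8%) there were 100 or more such own bases. For the 398, no single base or junction tells the transcript from its neighbours, and how the authors' tool divided such reads is not given in the sources used here.

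The libraries held 9100082, 7387317 and 7705592 mRNA reads, so that 3 reads are 3.30e-05%, 4.06e-05% and 3.89e-05% of them. Macrophage genes (16 of 20 matched) summed to 7120, 3692 and 2674 reads per 1000000 mRNA reads (RPM), and osteoclast genes (28 of 30) to 3115, 3347 and 6450. BMM-ABs were highest in the former and mOC-ABs in the latter. Acp5, the osteoclast acid phosphatase, had 9.67, 39.5 and 279.9 RPM. B and T cell genes (3 of 9 matched), stromal genes (5 of 8) and erythroid genes (1 of 6) each summed to at most 5.71 RPM, and none of 8 neutrophil genes was matched.

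Taken over the 2221 genes, NMD transcripts held 10.4% of the genes' reads in BMM-ABs (95% Clopper-Pearson interval 10.3 to 10.4). The share was 9.43% for pOC-ABs (9.38 to 9.48) and 9.77% for mOC-ABs (9.72 to 9.82). These are 186057, 125910 and 141749 reads. Over genes the median share was lower, at 4.45%, 3.64% and 3.54%. BMM-ABs were highest by both measures, and the pooled shares lay close together. Retained-intron transcripts of the same genes held 10.1%, 8.78% and 7.46%, and processed transcripts 1.71%, 1.54% and 1.59%. Protein-coding transcripts held 77.8%, 80.2% and 81.2%. The 10 genes with the most NMD reads carried 14.8%, 14.0% and 17.4% of the NMD reads.

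Few genes were carried mainly by NMD transcripts. The share was above 50% in 161, 138 and 140 genes of the libraries, and in 51 genes it was above 50% in all 3. It was above 90% in every library in 1 gene, Nfam1, an ITAM-bearing membrane receptor of immune cells. No NMD read was found in 181, 316 and 331 genes. Of the single NMD transcripts, 2879, 2638 and 2603 had a read, and 2068 had one in all 3 libraries.

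Single genes differed far more than the pooled share, in both directions. A change was called when the share, with 1 read added to the NMD reads and 1 to the others, was more than 2-fold higher or lower. In G1 the share was higher in 288 of the 1604 genes (18.0%) and lower in 394 (24.6%), so that 42.5% were called. In G2 it was higher in 294 (18.3%) and lower in 406 (25.3%), 43.6% in all. In G3 it was higher in 351 (21.9%) and lower in 354 (22.1%), 44.0% in all. The median log2 fold was -0.06, -0.04 and -0.01. The 95% intervals of the compared shares did not overlap for 554, 569 and 560 of the called genes. In 648 of the 682 genes called in G1, the level of the whole gene (RPM) differed by less than 2-fold. In G2 this held for 645 of 700 genes and in G3 for 674 of 705. Over all 9727 genes with 50 reads in each library, gene totals differed by more than 2-fold for 5.27% (G1), 6.65% (G2) and 3.75% (G3) of genes.

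The shares of other transcript types in the same genes gave fewer calls. Of 1535 genes with enough retained-intron reads, 27.4% were called in G1 (7.82% higher and 19.6% lower). In G2, 33.6% were called (5.73% higher and 27.8% lower), and in G3 26.1% (8.27% higher and 17.9% lower). Retained introns were thus mostly lower at the later stage, whereas NMD shares lay more evenly on both sides. Of 446 genes with enough reads of processed transcripts, 33.9% were called in G1 (13.5% higher and 20.4% lower). In G2, 36.1% were called (12.8% and 23.3%), and in G3 32.5% (15.0% and 17.5%).

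**Figure D2:**
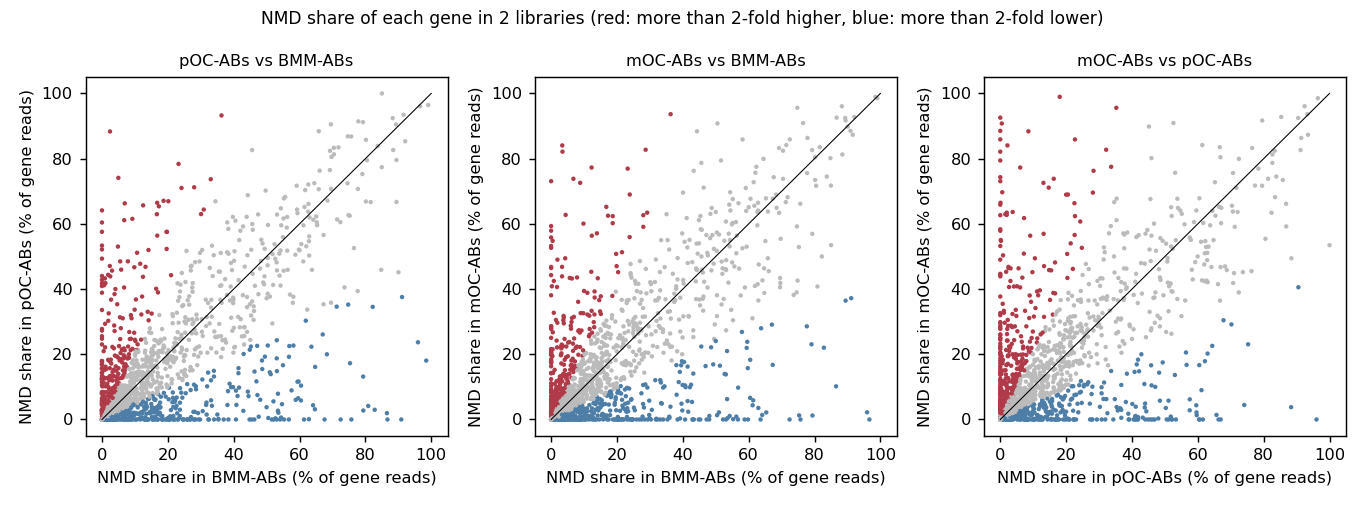
NMD share of each of the 1604 genes (% of gene reads) in the first-named library (vertical axis) against the second (horizontal axis) for each comparison; the line marks equal shares. Red points are more than 2-fold higher (288, 294 and 351 genes) and blue points more than 2-fold lower (394, 406 and 354); many lie on an axis, with no NMD read in 1 library.

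The same rule applied to single transcripts places these counts beside the other types. Of 2009 NMD transcripts with 20 or more reads, 930 had a share of the gene that was more than 2-fold higher or lower in G1, 919 in G2 and 956 in G3. These are 46.3% (19.7% higher and 26.6% lower), 45.7% (19.5% and 26.3%) and 47.6% (23.6% and 23.9%). Over all 29152 transcripts of any type the percentages were 32.8 (14.1 higher and 18.7 lower), 33.9 (13.1 and 20.7) and 32.9 (14.8 and 18.1). Protein-coding transcripts gave 28.9% in each comparison, with 14.2%, 14.0% and 13.9% higher and 14.7%, 15.0% and 15.0% lower. Retained-intron transcripts gave 37.5%, 41.3% and 37.4%, and processed transcripts 36.3%, 37.9% and 36.9%. NMD transcripts had the highest percentage of these types in each comparison. Among transcripts with 100 or more reads and a mean share of 5% to 30%, a range chosen after the values were seen, the percentages were 45.1, 48.4 and 50.8 for 510 NMD transcripts. For all 5880 transcripts in that range they were 41.5, 41.0 and 42.0. The gap between NMD transcripts and all types was smaller in this range of depth and share.

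Of the 7289 retained-intron transcripts, 12.1% were higher and 25.4% lower in G1. The like values for G2 were 9.37% and 31.9%, and for G3 13.8% and 23.6%. The 2286 processed transcripts gave 14.9% and 21.4%, 13.5% and 24.5%, and 16.8% and 20.2%. Between NMD transcripts without an own base and those with 100 or more, the percentage called in G1 was 47.0% of 1103 against 44.7% of 533. In G2 these groups gave 44.7% and 47.3%, and in G3 47.4% and 46.0%. Their directions were less alike. Without an own base, 250 were higher and 268 lower in G1, and with 100 or more own bases 75 were higher and 163 lower. The like counts were 245 and 248 against 72 and 180 in G2, and 274 and 249 against 106 and 139 in G3. NMD transcripts with 100 or more own bases were thus more often lower than higher in each comparison.

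**Figure D3:**
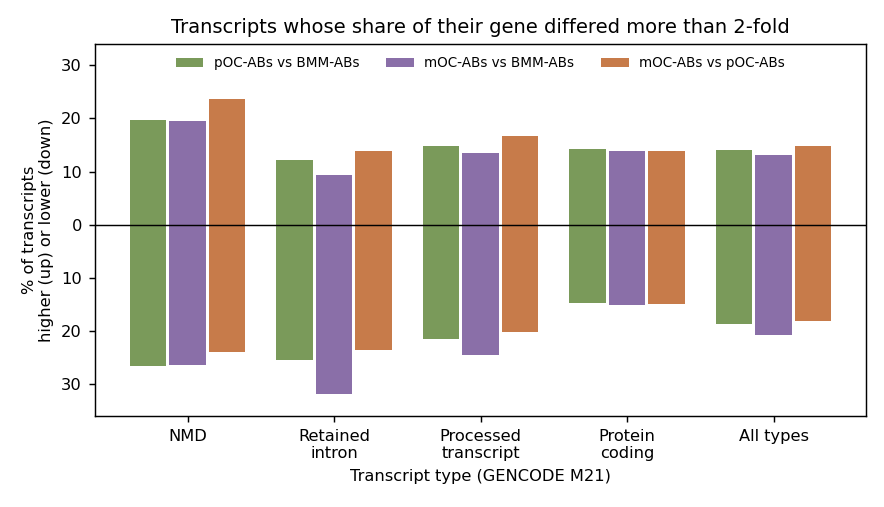
Percentage of transcripts of each GENCODE type whose share of their gene differed more than 2-fold, higher above the zero line and lower below it, for the 3 comparisons; transcripts with 20 or more reads. NMD transcripts reach 23.6% higher and 23.9% lower in mOC-ABs against pOC-ABs, against 14.8% and 18.1% for all types.

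Ribosomal protein genes held many NMD reads at much the same share in every library. Of the 80 genes of this list, 16 met the rule and 13 had 20 or more NMD reads. The 16 are 20.8% of the 77 with 50 reads in each library, near the 22.8% of all such genes. Together the 16 had an NMD share of 27.6%, 27.4% and 27.6%. In G1 none of the 13 was more than 2-fold higher and 1 lower, against 18.0% and 24.6% of all genes. In G2, 2 were higher and 1 lower, against 18.3% and 25.3% of all genes, and in G3, 2 were higher and none lower, against 21.9% and 22.1%. The lower gene in G1 was Rps12, chosen after its values were seen, with 23 of 316, 11 of 332 and 57 of 346 reads, and it was among the higher ones in G2 and G3. Ribosomal protein genes have many processed pseudogenes, and reads shared with these copies make their counts uncertain.

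Rpl13a had 5189 NMD reads of 9568 in BMM-ABs (54.2%), 4485 of 8648 in pOC-ABs (51.9%) and 5255 of 9900 in mOC-ABs (53.1%). Its 4 NMD transcripts were led by Rpl13a-205, with 5045, 4330 and 5158 reads. Rpl13a-205 has no own base and is told from the coding form by 1 junction.

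Rps19, a protein of the small subunit, had 990, 817 and 901 NMD reads, or 32.7%, 29.5% and 28.7%. Rpl12 had 22.3%, 22.8% and 26.6%. Rpl3, known for an intron-derived stop that limits its own synthesis, had 22.0%, 18.2% and 23.4%. In each of these 3 genes the intervals of 1 pair of libraries did not overlap, BMM-ABs and mOC-ABs in Rps19 and Rpl12, and pOC-ABs and mOC-ABs in Rpl3. Rps9 had 3.30%, 1.88% and 1.10%, more than 2-fold lower in G2. Rpl6 (3.40%, 3.75% and 3.18%) and Rpl10a (2.24%, 1.997% and 2.22%) stayed low in all libraries.

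Outside the ribosome, the steadiest genes with a share of at least 20% everywhere were Nbr1, Tmem234, Hmgxb4 and Nfam1, besides Rpl13a. Nbr1, a receptor that brings ubiquitinated cargo to autophagosomes, had 27.3%, 26.4% and 27.3%, all from Nbr1-208. Tmem234 lists 11 NMD transcripts of 19 and had 89.3%, 90.5% and 92.5%. Hmgxb4, an HMG-box protein, had 68.5%, 67.1% and 64.9%. The intervals of Nbr1, Tmem234 and Hmgxb4 overlapped in every pair of libraries. Those of Rpl13a and Nfam1 did not overlap between BMM-ABs and pOC-ABs. Nfam1 had 99.1%, 96.4% and 98.5%, with 959, 353 and 405 reads on Nfam1-202. Only 6, 13 and 5 reads were on its main protein-coding transcript. Anxa4, a calcium-dependent membrane-binding protein, had 65.3%, 60.5% and 67.8%, and its NMD transcript Anxa4-204 has 686 own bases. The interval of Anxa4 in pOC-ABs lay below those in BMM-ABs and mOC-ABs.

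**Figure D4:**
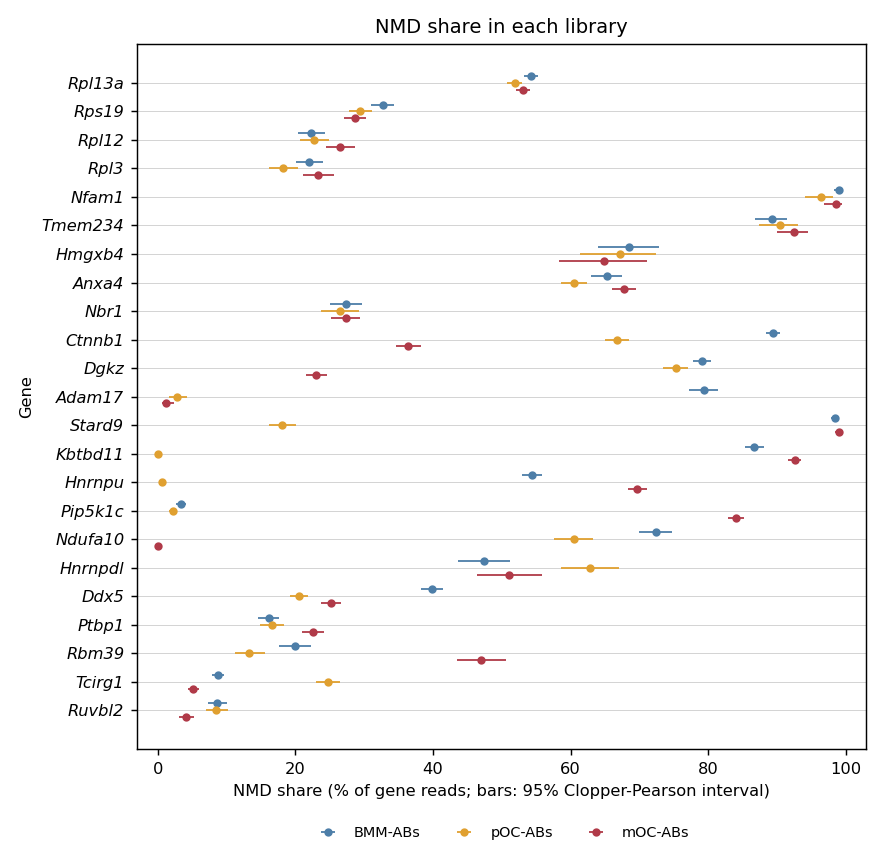
NMD share (% of gene reads, horizontal axis) of 23 genes named in the text, with a colour for each stage; points are single libraries and bars are 95% Clopper-Pearson intervals. Ribosomal genes and Nbr1 lie close together in the 3 libraries, while Kbtbd11 (86.7%, 0% and 92.6%) and Ndufa10 (72.4%, 60.5% and 0%) span most of the axis.

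Among the genes with the most NMD reads, Ctnnb1 and Dgkz had their lowest share in mOC-ABs. Ctnnb1, the gene of β-catenin, had 3007 NMD reads of 3362 in BMM-ABs (89.4%), 1935 of 2900 for pOC-ABs (66.7%) and 1052 of 2887 for mOC-ABs (36.4%). Nearly all were on Ctnnb1-208, which adds 4 bases and skips 3 against Ctnnb1-201. The protein-coding Ctnnb1-201 held 54, 702 and 523 reads, highest in pOC-ABs, and the rest of the gene's reads were on other transcripts. Ctnnb1-208 has no own base and 1 own junction. The NMD share of Ctnnb1 was more than 2-fold lower in G2 (log2 fold -1.29) and not in G1 or G3. Dgkz, a diacylglycerol kinase, had 79.1%, 75.3% and 23.1%. Its protein-coding transcript Dgkz-203 held 618, 197 and 2058 reads, highest where the NMD share was lowest. On Dgkz-206 alone, which has 132 own bases, the share stayed inside 2-fold (log2 fold -0.46 in G2 and -0.99 in G3).

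Adam17, the protease that sheds TNF and the M-CSF receptor from the cell surface, had 1235 NMD reads of 1556 in BMM-ABs (79.4%), 18 of 655 for pOC-ABs (2.75%) and 9 of 736 for mOC-ABs (1.22%). Adam17-203, with 19 added bases, held 1234, 2 and 7 of these reads. The protein-coding Adam17-201 held 264, 613 and 707. The reads of the gene as a whole were lower as well, by a log2 ratio of -0.95 in G1 and -0.84 in G2. Fbxl4, an F-box protein, had a like course with fewer reads, at 96.0%, 23.7% and 2.20% of 124, 76 and 91 reads.

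In other genes 1 library stood apart. Kbtbd11, a Kelch and BTB domain protein, had 2088 of 2408 reads on Kbtbd11-202 in BMM-ABs and 3029 of 3272 in mOC-ABs. In pOC-ABs it had 0 of 1894. An exact interval for the 0 reaches 0.195%. It counts all 1894 reads, although Kbtbd11-202 has no own base and only 1 own junction, so it is too narrow. Kbtbd11-201, which encodes the same frame, held 315, 1892 and 242 reads, so the level of the whole gene (RPM) had a log2 ratio of -0.05 in G1. Hnrnpu, a nuclear RNA-binding protein, had 2408, 28 and 2914 NMD reads (54.4%, 0.597% and 69.7%), against 1593, 4428 and 1121 on Hnrnpu-201. Hnrnpu-206 held 2396, 13 and 2901 of the NMD reads. Its frame has 99.1% of the length of the longest annotated one, and it has no own base. Stard9, a kinesin of the centrosome, had 98.5%, 18.1% and 98.96%, and Stard9-206 held 0, 1247 and 15 reads. In these 3 genes pOC-ABs were low and the other libraries high.

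Tti2 (90.9%, 0% and 88.5%) and Vps33b (72.5%, 0% and 85.9%) had the same order with 122 to 269 reads per library. Tti2-203 shares its stop with a protein-coding transcript, and its frame has 95.3% of the length of the longest one. Ppp1cc, a catalytic subunit of protein phosphatase 1, had 50.5%, 0.465% and 90.8% of 196, 215 and 521 reads. The level of the whole gene was higher in G2 (log2 ratio 1.65). The opposite order, with pOC-ABs high, was found in Gpbp1 (0%, 60.4% and 0%), Pcid2 (6.92%, 66.3% and 0%) and Clcn6 (4.97%, 74.1% and 4.44%). Clcn6 had 463, 112 and 180 reads in all, a log2 ratio of -1.75 in G1. Osbpl9, a lipid transfer protein, had 20.2%, 66.9% and 0%. The NMD transcripts of Tti2, Ppp1cc and Gpbp1 have no own base and no own junction, so their split from the other transcripts rests on the authors' estimate.

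mOC-ABs stood apart in Pip5k1c, a kinase that makes phosphatidylinositol 4,5-bisphosphate at adhesion sites. Its NMD reads were 91 of 2689, 64 of 2949 and 3094 of 3681 (3.38%, 2.17% and 84.1%). Pip5k1c-208, with 13 own bases, had 22, 0 and 3033 reads, and Pip5k1c-210, protein-coding, had 2426, 2813 and 519. Its 1 NMD transcript with 100 or more own bases, Pip5k1c-206, had 16, 9 and 5 reads, and on it alone the direction was opposite (log2 fold -1.96 in G2 and -1.06 in G3). Slc10a7 (0%, 0% and 73.1%) and Camsap1 (6.77%, 16.2% and 73.8%) were also highest in mOC-ABs. Slc10a7-209 shares its stop with a protein-coding transcript, and its frame has 100% of the length of the longest one. Ndufa10, a subunit of respiratory complex I, went the other way, with 974 of 1345, 717 of 1185 and 0 of 1272 reads. Ndufa10-201, protein-coding, had 306, 420 and 1236. The NMD transcript, Ndufa10-207, has no own base and 1 own junction. Napb had 96.7%, 96.0% and 0% of 150, 101 and 67 reads.

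Some genes separated BMM-ABs from the other libraries. Mrpl48, a mitochondrial ribosomal protein, had 0 of 310, 175 of 304 and 187 of 335 reads, on a transcript that likewise has no own base or junction. Ccnl2, a cyclin of splicing speckles, had 0%, 33.6% and 59.3%. Pcnp had 86.5%, 1.94% and 10.2%, and its reads in all were 156, 310 and 59.

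Such moves from under 1% in 1 library to above 50% in another were found in 43 of the 1604 genes (2.68%). Of single NMD transcripts, 56 of 2009 did so (2.79%), as did 348 of 17517 protein-coding transcripts (1.99%), 23 of 7289 retained-intron transcripts (0.316%) and 443 of all 29152 transcripts (1.52%). A move of this kind was thus also found in the other types.

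Splicing factors had many members. Of 53 genes of SR and hnRNP proteins and their partners, 39 met the rule and 35 had 20 or more NMD reads. The 39 are 75% of the 52 with 50 reads in each library, against 2221 of all 9727 such genes (22.8%). The pooled NMD share of the 39 genes was 15.2%, 8.42% and 16.1%. Hnrnpu alone gave 2408 of 7173, 28 of 3386 and 2914 of 6741 of these NMD reads. The medians over the 39 genes were 7.25%, 4.08% and 6.23%, against 4.45%, 3.64% and 3.54% over all 2221 genes. In G1, 3 of the 35 were more than 2-fold higher and 8 lower, against 18.0% and 24.6% of all genes. In G2, 3 were higher and 5 lower, against 18.3% and 25.3% of all genes. In G3, 8 were higher and 7 lower, which is near the 21.9% and 22.1% of all genes.

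Ptbp1, the polypyrimidine tract binding protein that represses exons, had 376 NMD reads of 2332 (16.1%), 298 of 1800 (16.6%) and 581 of 2575 (22.6%). Ptbp1-201 lacks 34 bases that Ptbp1-202 has, and it has 120 others, but none of its bases or junctions is its own among the listed transcripts. Ddx5, an RNA helicase, had 39.9%, 20.5% and 25.2%, all on Ddx5-208, which has 729 own bases. Its share in pOC-ABs lay just inside the 2-fold limit (log2 fold -0.96). Hnrnpdl had 47.4%, 62.9% and 51.1%, and Hnrnpdl-201 encodes the full frame and carries its extra junctions after the stop. Hnrnpll, which governs exon choice of Ptprc in lymphocytes, had 28.8%, 30.8% and 25.8%, with intervals that overlapped.

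Rbm39, a U2AF-related protein, had 19.9%, 13.3% and 47.0%, and its reads were spread over 6 NMD transcripts of 22, led by Rbm39-225, which has no own base or junction. The 1 with 100 or more own bases, Rbm39-224, had 12, 6 and 4 reads, and on it alone the direction was opposite (log2 fold -0.82 in G2 and -0.13 in G3). Rbm5 had 14.6%, 18.3% and 36.6%, and 150 of the 268 reads in mOC-ABs were on Rbm5-210, which had 0 in the other libraries. Hnrnpl had 7.81%, 10.2% and 3.24%. Among the SR proteins, chosen after their values were seen, Srsf3 had 239 of 1009, 45 of 873 and 150 of 871 reads (23.7%, 5.15% and 17.2%). Srsf6 had 17.0%, 1.68% and 12.6%, and Tra2a 25.9%, 10.9% and 16.0%. These 3 genes were lowest in pOC-ABs, but the family as a whole was not. Of its 9 genes with 20 or more NMD reads, 4 had their lowest share in pOC-ABs and the other 5 in mOC-ABs. pOC-ABs were highest in 4, Srsf2 and Srsf9 among them. Srsf1, also chosen after its values were seen, had 9 of 939, 8 of 799 and 9 of 940 reads, with intervals that overlapped.

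The summed reads of the machinery of the pathway lay close together in the libraries. The reads of the 27 listed NMD factors summed to 26358, 20196 and 22310, or 2896, 2734 and 2895 RPM. The log2 ratio of the sums was -0.083 in G1, with a 95% exact binomial interval of -0.11 to -0.057. It was -0.00058 in G2 (-0.026 to 0.025), where median-of-ratios size factors gave 0.040, and for G3 it was 0.083 (0.055 to 0.11). Of the 26 factors with 50 or more reads in each library, none was more than 2-fold higher in any comparison. Nbas, needed for decay of transcripts at the endoplasmic reticulum, was lower by this limit in G1 and G2 (788, 319 and 313 reads), and no factor was in G3. Over all 9727 genes with 50 reads in each library, 5.27% (G1), 6.65% (G2) and 3.75% (G3) passed the limit, so few calls are no trait of this list. The intervals of single factors lay above 0 for 9 and below 0 for 7 in G1 and in G2, and for 8 and 6 in G3.

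Upf1, the central helicase, had 1937, 1437 and 1552 reads, a log2 ratio of -0.13 in G1 and -0.08 in G2. Smg1, the kinase of UPF1, had 4305, 2221 and 2877 reads, with ratios of -0.65 and -0.34. Smg5 (-0.60 and -0.07) and Smg6 (-0.54 and -0.22), which act after phosphorylation, were also lowest in pOC-ABs. The G2 intervals of Upf1 and Smg5 held 0. Upf3a, Upf3b and Smg9 were lowest in mOC-ABs instead. The exon junction proteins Eif4a3 (0.24 and 0.23), Rbm8a (0.30 and 0.19) and Magoh (0.64 and 0.24) were higher than in BMM-ABs, as was the release factor Gspt1 (0.50 and 0.53). Their intervals did not hold 0, and no replicate error stands behind them. Casc3 and Ncbp1 had intervals that held 0 in G1 and G2.

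**Figure D5:**
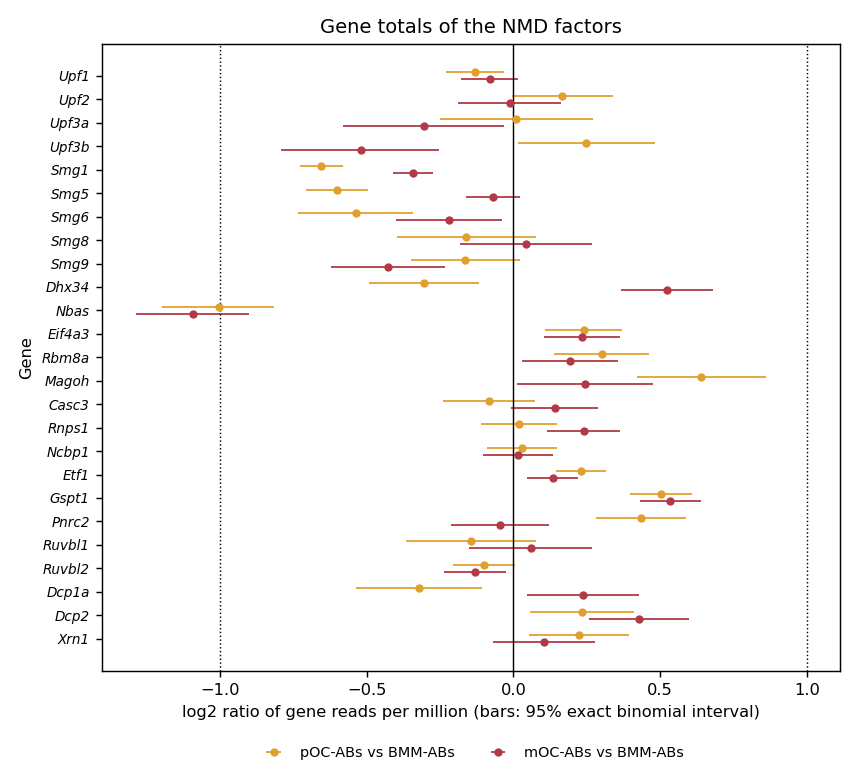
Log2 ratio of gene RPM (horizontal axis) of 25 NMD factors in pOC-ABs and mOC-ABs against BMM-ABs; bars are 95% exact binomial intervals and cover counting error only, and dotted lines mark 2-fold. Nbas lies at or beyond the lower line in both comparisons, and every other factor drawn lies between the lines.

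Of the 26 NMD factors with 50 reads in each library, 3 list NMD transcripts of their own (11.5%), against 22.8% of all such genes. Ruvbl2, an ATPase of the SMG1 complex, had 145 of 1690, 109 of 1280 and 53 of 1307 reads (8.58%, 8.52% and 4.06%), just past 2-fold lower in G2 and G3 and just inside it from FPKM. Dcp1a, a decapping cofactor, had 37, 0 and 0 reads, on Dcp1a-209, which has the full frame and a shared stop. Smg5 had 0.614%, 1.15% and 0.878%, with intervals that overlapped.

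Of the 22 osteoclast genes with 50 reads in each library 4 met the rule (18.2%), as did 2 of 13 macrophage genes (15.4%), against 2221 of all 9727 such genes (22.8%). The 4 osteoclast genes had a pooled NMD share of 4.29%, 11.3% and 4.16%. Tcirg1 alone gave 573 of their 664 NMD reads in pOC-ABs, and the medians over the 4 genes were 2.63%, 3.53% and 3.59%. Tcirg1, a membrane subunit of the osteoclast proton pump, had 341 of 3890, 573 of 2316 and 155 of 3041 reads (8.77%, 24.7% and 5.10%). Tcirg1-202 had 0, 466 and 11 of them, and Tcirg1-210 had 341, 107 and 144. Mitf, a transcription factor of osteoclasts, had 3.53%, 3.71% and 13.6%, with 26, 26 and 127 NMD reads. Atp6v1c1 (1.72%, 3.34% and 2.09%) and Plekhm1 (0.682%, 1.44% and 0.953%) stayed under 4%. Tyrobp, the ITAM adaptor known as DAP12, had 1.20%, 0.867% and 1.89% of 6433, 3230 and 3385 reads.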

How the data were processed

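RNA of ABs was sequenced from poly-A selected, paired-end libraries, 1 library per stage. The authors deposited, per the file headers, a read count and an FPKM for each Ensembl transcript, FPKM being the count divided by transcript length and library total. HISAT2, StringTie, FastQC and GRCm38 are named in the submitters' processing notes. Their settings are not given in the sources used here. The deposited counts of lncRNAs were used for no comparison, and circRNAs were not used.

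Columns named 0h, 24h and 72h were taken as BMM-ABs, pOC-ABs and mOC-ABs, from the times of RANKL in the labels. The study's text gives the same times for the first stages and gives mature osteoclasts a longer time than 72 h. Transcript types, exons, stop codons and sequences came from GENCODE M21 (GRCm38), in which 56422 of 56651 transcripts were found. NMD counts were divided by the counts of all listed transcripts of the gene. Genes needed 50 reads in each library, and comparisons 20 NMD reads over the 3 libraries. A change was a fold of shares above 2 or below 0.5 with a pseudocount of 1 read. Gene totals were divided by the total of the mRNA table. Intervals are 95% Clopper-Pearson intervals. Reads without molecular identifiers are not independent molecules, so intervals and the limit of 3 reads cover counting error only. The intervals do not cover how reads were divided among the transcripts of a gene.

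Genes were named by a rule: the 8 with the most NMD reads, the 4 largest rises and 4 largest falls in percentage points per comparison with 100 NMD reads, the 5 steadiest with 300 reads and 20% in each library, and up to 8 per list. The members and lists were chosen with earlier results of these data known. Code ran in Python 3.11.15 with numpy 2.4.6, pandas 2.3.3 and scipy 1.17.1 and was tested on simulated data. Results for 2 genes are not reported here.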

Additional observations from a re-analysis of the deposited data

How the results depend on the processing

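No paired analysis was possible because each stage has 1 library. The depth limits small shares: the median NMD transcript had 11, 7 and 7 reads. The pooled share (10.4%, 9.43% and 9.77%, in stage order) depended on the choices. It was 13.4%, 13.3% and 12.9% from summed FPKM, 9.91%, 9.06% and 9.44% with a gene minimum of 200 reads, 9.25%, 6.98% and 6.99% on NMD transcripts with at least 100 own bases, 9.09%, 8.37% and 8.32% without the 10 genes with the most NMD reads, and 4.45%, 3.64% and 3.54% as a median over genes. BMM-ABs were highest in each of these, and the order of pOC-ABs and mOC-ABs turned with FPKM, without the 10 genes and by the median. The genes called in G1, G2 and G3 (682, 700 and 705) numbered 438, 451 and 460 with a gene minimum of 200, 287, 292 and 312 with at least 100 NMD reads, and 220, 232 and 225 with at least 100 own bases, where fewer genes were tested (1094, 793 and 509). They moved by less than 1.5 times from FPKM, with 0.5 reads added, with no minimum, or with intervals that had to be apart. The transcripts called (930, 919 and 956) numbered 1577, 1566 and 1551 with no minimum, 324, 334 and 364 with at least 100 reads, 238, 252 and 245 with at least 100 own bases, and 230, 247 and 259 with at least 100 reads and a mean share of 5% to 30%, the last chosen after seeing the data. The NMD factor sum moved to 0.040 in G2 and 0.13 in G3 with median-of-ratios size factors, and to -0.056 in G1 on protein-coding transcripts only. Of the named genes' folds, 4 were reversed with at least 100 own bases: Pip5k1c (-1.96 in G2 and -1.06 in G3) and Rbm39 (-0.82 and -0.13). The construction shows why: the transcript with most reads was left out. With the same minimum, 3 others came inside the 2-fold limit (Dgkz, -0.46 in G2 and -0.99 in G3, and Fbxl4, -0.67 in G3), and with FPKM 8 crossed it: Adam17 in G3 (-0.41), Camsap1 in G1 (0.97), Ctnnb1 in G3 (-1.14), Pcnp in G3 (0.80), Ppp1cc in G2 (1.33), Rbm5 in G2 (0.95) and Ruvbl2 in G2 (-0.90) and G3 (-0.95).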
